A study of Mus musculus with 4 samples.

Results

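The genes described here are embryonic copies of 2 translation and splicing-linked factors, *Eif1a* and *Eif4a3*, together with the genes they resemble and the initiation factors with similar names. They were chosen by symbol from a list of 8 genes, namely the retrogene copies *Eif1ad3*, *Eif4a3l1* and *Eif4a3l2*, the parents *Eif1a* and *Eif4a3*, and *Eif1*, *Eif1b* and *Eif1ad*. In the table of 26022 genes 7 of the 8 had a row, and all 7 were among the 14259 genes tested; *Eif4a3l2* was not analysed here. The RNA came from late 2-cell (2C) embryos of the ICR strain, from females of 7 to 8 weeks, cultured from the zygote stage in KSOM medium for 16 h. Control embryos had no Mdivi-1, and treated embryos had 200 μM Mdivi-1, a small molecule used to inhibit DRP1, the GTPase that divides mitochondria; the methods name no vehicle for the control embryos. There were 2 control libraries and 2 Mdivi-1 libraries, each made by Smart-Seq2 amplification, with 8 to 10 embryos a group per the methods. The comparison asks how the inhibitor affected the transcriptome of the embryo. Values of the libraries are given below in a fixed order, control replicates 1 and 2 against Mdivi-1 replicates 1 and 2.

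eIF1A, the protein of *Eif1a* and of its X-linked relative *Eif1ax*, binds the small ribosomal subunit with eIF1 and helps the 43S preinitiation complex scan to the start codon. eIF4A3, the protein of *Eif4a3*, is a DEAD-box RNA helicase that anchors the exon junction complex on spliced mRNA, where it contributes to nonsense-mediated decay. A retrogene is a copy of a gene made through its spliced mRNA, so that its coding sequence usually lacks the introns of the parent. Mouse 2-cell embryos are known to transcribe families of *Eif1a*-like copies during activation of the zygotic genome.

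The gene models fitted the name retrogene. In GENCODE release 21 (build GRCm38), *Eif1ad3* (ENSMUSG00000072905, named *Gm2016* there) lies on the plus strand of chromosome 12 from 87874072 to 87877859, and its 435 coding bases are in 1 of its 2 exons. *Eif4a3l1* (ENSMUSG00000094973, named *Gm8994* there) lies on the plus strand of chromosome 6 from 136327539 to 136329983, and its 1236 coding bases are in 1 exon, against 12 coding exons in *Eif4a3*. Over 435 aligned coding bases, *Eif1ad3* was 94.5% identical to *Eif1a* and 85.1% identical to *Eif1ax*, which has 7 coding exons. The encoded proteins were 93.8% and 92.4% identical over 144 aligned residues. The *Eif1a* model used here is longer, with 765 coding bases and 254 residues in 3 coding exons, and the rest of it is outside these identities. *Eif4a3l1* differed from *Eif4a3* at 47 of 1236 coding bases and at 16 of 411 residues, and its protein was 66.4% identical to that of *Eif4a1*. *Eif1*, *Eif1b* and *Eif1ad* were not close to the copies. The *Eif1ad3* protein was 27.6% identical to that of *Eif1*, 26.7% to that of *Eif1b* and 28.3% to that of *Eif1ad*. An alignment of the *Eif1ad3* protein with the unrelated helicase *Eif4a3* gave 37.7%, so identities of this size do not tell relatives from other proteins. Which of *Eif1a* and *Eif1ax* gave rise to the copies was not tested.

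The first 120 coding bases are printed because they show how near the copies are to each other and to an intron-containing relative. Capitals mark bases that differ from *Eif1ad3*. *Eif1ad7* and *Eif1ad19* each differ from it at 1 base in this stretch, and *Eif1ax* at 19. Of the copies not printed, *Eif1ad2* and *Eif1ad4* differ at 0 bases and *Eif1ad8* at 2. *Eif1a*, also not printed, is nearer to *Eif1ad3* than *Eif1ax* is over the aligned coding bases (94.5% against 85.1%).
Eif1ad3: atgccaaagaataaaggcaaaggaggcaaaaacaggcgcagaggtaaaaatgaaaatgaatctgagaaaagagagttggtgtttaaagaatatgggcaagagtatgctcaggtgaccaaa
Eif1ad7: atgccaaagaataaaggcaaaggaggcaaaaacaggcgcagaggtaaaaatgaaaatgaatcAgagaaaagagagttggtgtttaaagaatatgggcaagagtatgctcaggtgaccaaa
Eif1ad19: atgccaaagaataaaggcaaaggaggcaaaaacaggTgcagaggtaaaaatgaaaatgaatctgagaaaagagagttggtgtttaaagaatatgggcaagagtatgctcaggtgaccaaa
Eif1ax: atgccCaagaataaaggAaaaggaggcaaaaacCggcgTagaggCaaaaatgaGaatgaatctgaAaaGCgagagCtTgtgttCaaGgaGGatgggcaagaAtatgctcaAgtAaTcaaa

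In the next pair, from the start codon on, capitals in *Eif4a3l1* mark the 10 of 120 bases that differ from *Eif4a3*.
Eif4a3: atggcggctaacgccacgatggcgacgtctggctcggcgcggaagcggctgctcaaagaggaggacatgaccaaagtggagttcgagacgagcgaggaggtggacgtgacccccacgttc
Eif4a3l1: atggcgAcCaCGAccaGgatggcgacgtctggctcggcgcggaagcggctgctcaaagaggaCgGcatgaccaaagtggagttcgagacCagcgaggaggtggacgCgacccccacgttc

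The deposited counts are of reads that map to a single place, so near-identical stretches can lose reads. Of all stretches of 150 bases in the *Eif1ad3* transcripts, 43.7% also occur letter for letter in transcripts of 4 other genes. A read of 150 bases inside such a stretch can be placed only through its mate, so this is not the share of reads lost, which is not known. The share was 15.0% for *Eif4a3l1*, with *Gm5580* (the older name of *Eif4a3l2*) and *Gm5576*. *Eif4a3* shared 0.0887% of its stretches, and *Eif1a* shared 0, so that no stretch of either parent was identical to one in *Eif4a3l1* or *Eif1ad3*. The counts of *Eif1ad3* are therefore uncertain between near-identical copies.

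The libraries held between 17712075 and 20077326 counts. The controls differed in their stage markers. The summed level of the 10 2C stage markers, as TMM-normalized CPM (each count scaled to a common library size), was 945 and 1608 against 2577 and 2909. For the 12 oocyte markers it was 1791 and 3468 against 3893 and 4961. The largest part of that sum was *Oosp1*, at 956 and 2368 against 2401 and 3198 CPM. Both treated libraries lay above both controls in 5 of the 12 and below them in 2, *Zp3* and *H1f8*. The shares of all genes were 26.1% and 23.9%, and the other 5 markers overlapped. Control replicate 1 had the lower sum in both lists. In the 2C list that gap lay mainly in *Tcstv1*, at 79.3 against 276 CPM in control replicates 1 and 2, and *Tcstv3*, at 171 against 567 CPM, whereas *Zscan4c* and *Zfp352* were higher in replicate 1, and in the oocyte list *Oosp1* was at 956 against 2368 CPM. All of these 22 markers had counts. The 10 cumulus and granulosa markers summed to between 7.78 and 22.4 CPM, with *Amh*, *Inha*, *Has2* and *Ptx3* at 0 in every library, and the 7 blastocyst lineage markers to between 32.1 and 46.3 CPM, with *Cdx2* and *Sox17* at 0. The part of the stage and oocyte markers in the results on the copies was not tested. In RNA of whole embryos, fewer cells of a kind and less RNA per cell cannot be told apart. Whether libraries that share a group came from separate litters is not given, so p-values cover only the spread among these 4 libraries, which may be technical.

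Both measured retrogenes had higher levels in treated than in control embryos, and *Eif1a*, *Eif4a3* and *Eif1ad* had lower ones, with no overlap between the groups in any of the 5. *Eif1* and *Eif1b* overlapped. The main test, edgeR's quasi-likelihood test, adjusted by Benjamini-Hochberg across the whole table, passed 0 of the 7 members, and 0% of all genes; the smallest adjusted value was 0.109. Without adjustment, p was under 0.05 for 2 members that were higher and 2 that were lower, against 8.27% of all genes higher and 7.64% lower. DESeq2, an alternative test with a cutoff of an adjusted p under 0.05 and more than 2-fold, called *Eif1ad3* and *Eif4a3l1* higher and *Eif1ad* lower, against 3.23% of all genes higher and 2.73% lower. By the same DESeq2 cutoff 5 of the 10 2C stage markers and 2 of the 12 oocyte markers were called higher. Both treated libraries lay above both controls for 2 members and below them for 3, as they did for 26.1% and 23.9% of all genes. The median log2 fold change was -0.06 over the 7 members and 0.03 over all genes tested.

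*Eif1ad3* was read at 330.0 and 871 CPM against 1788 and 1749 CPM. The treated libraries were close to each other and both above the controls, of which replicate 1 was the lower. The mean was 601 ± 383 CPM in controls and 1769 ± 27.9 CPM in treated embryos (SD, n = 2 each), a fold of 2.94. The log2 fold change was 1.56 (SE 0.47, 95% interval 0.46 to 2.66), with an adjusted p of 0.208 by edgeR's quasi-likelihood test and 0.00553 by DESeq2. *Eif1ad3* took 0.0361% and 0.0726% of all counts against 0.188% and 0.181%.

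*Eif4a3l1* was read at 46.3 and 86.9 CPM against 198 and 248.6 CPM. Every treated value was above every control value, and replicate 1 was again the lower control. The means were 66.6 ± 28.7 and 223 ± 35.5 CPM (SD, n = 2 each), a fold of 3.36. The log2 fold change was 1.75 (SE 0.38, 95% interval 0.87 to 2.63), and the adjusted p was 0.153 by edgeR's quasi-likelihood test and 0.000747 by DESeq2.

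The DESeq2 calls of both retrogenes were lost with either treated library left out, although the fold changes moved more with a control left out. Without Mdivi-1 replicate 1 the DESeq2 log2 fold changes of *Eif1ad3* and *Eif4a3l1* were 1.54 and 1.90. Without Mdivi-1 replicate 2 they were 1.56 and 1.56. Without Mdivi-1 replicate 1 the DESeq2 adjusted p was 0.218 for *Eif1ad3* and 0.0651 for *Eif4a3l1*, and without Mdivi-1 replicate 2 it was 0.125 and 0.126. Without control replicate 1 the log2 fold changes of DESeq2 were 0.97 and 1.32, with adjusted p-values of 0.00316 and 0.00285, so that *Eif1ad3* fell short of the 2-fold cutoff. Without control replicate 2 they were 2.40 and 2.25. These repeats were added after seeing the data.

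**Figure D1:**
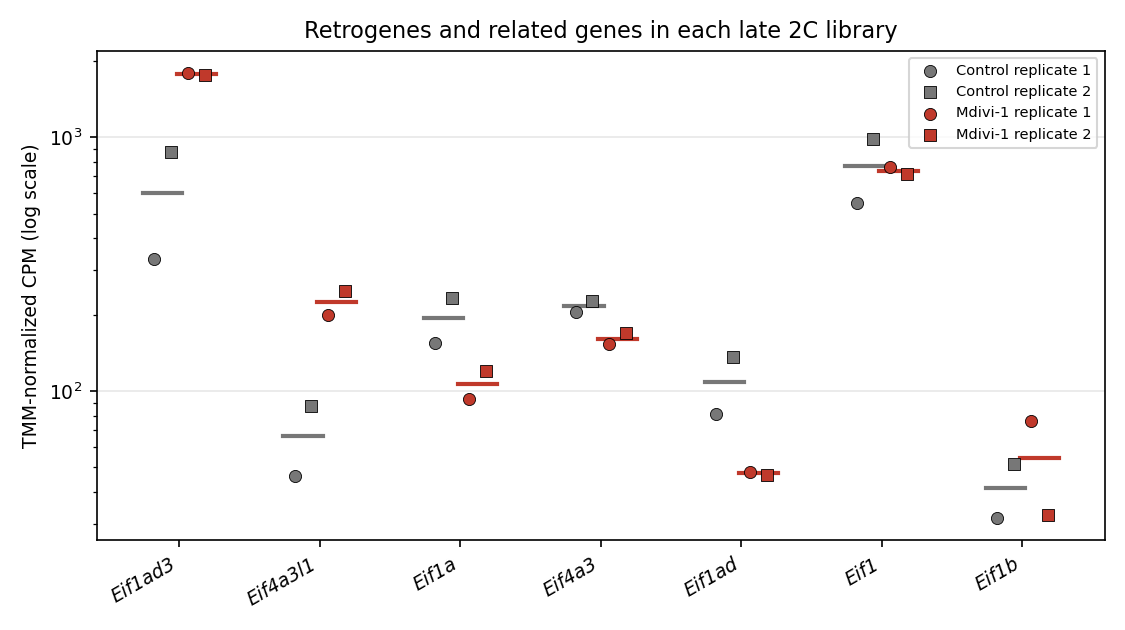
TMM-normalized CPM on a log axis in each library for the 7 genes measured; grey points are controls, red points Mdivi-1-treated embryos, circles replicate 1 and squares replicate 2, and bars are group means (n = 2). Both red points lie above both grey points for Eif1ad3 and Eif4a3l1 and below them for Eif1a, Eif4a3 and Eif1ad; heights are to be compared within a gene, since CPM is not divided by length.

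*Eif1a* (ENSMUSG00000057561, chromosome 18 from 46597701 to 46616456) was read at 154 and 232 CPM against 93.1 and 120 CPM. Both treated values were below both controls, the opposite order to *Eif1ad3*. The log2 fold change was -0.86 (SE 0.33, 95% interval -1.63 to -0.09), with an unadjusted p of 0.0336 by edgeR's quasi-likelihood test and adjusted p-values of 0.271 by edgeR and 0.130 by DESeq2. *Eif1ax*, whose protein was 98.6% identical to that of *Eif1a* over 144 aligned residues, was at 106 and 223 CPM against 142 and 110 CPM. Its groups overlapped, and its log2 fold change of -0.38 had an edgeR adjusted p of 0.726.

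*Eif4a3* (ENSMUSG00000025580, minus strand of chromosome 11 from 119288363 to 119300089) was read at 205 and 226 CPM against 153 and 169 CPM. The groups did not overlap, but the gap was small: the log2 fold change was -0.42 (SE 0.28, 95% interval -1.07 to 0.23), with adjusted p-values of 0.521 by edgeR and 0.502 by DESeq2. *Eif4a1* and *Eif4a2*, the paralogs that unwind mRNA for ribosome loading, had log2 fold changes of -0.12 and -0.02, and their groups overlapped.

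Within each library the copy can be set against its parent, a ratio in which the scaling of the library cancels. The counts of *Eif1ad3* were 2.14 and 3.75 times those of *Eif1a* in controls, and 19.2 and 14.5 times in treated embryos. *Eif4a3l1* had 0.226 and 0.385 times the counts of *Eif4a3* in controls, and 1.30 and 1.47 times in treated embryos. The copy thus had fewer counts than its parent in both controls and more in both treated libraries for *Eif4a3l1*, and more in all 4 libraries for *Eif1ad3*. The group means of the log2 ratio differed by 2.56 for *Eif1ad3* over *Eif1a* (5.89-fold) and by 2.23 for *Eif4a3l1* over *Eif4a3* (4.68-fold), and with each library left out by 2.16 to 2.96 and by 1.84 to 2.61. The two-sided exact permutation p was 0.333 for each, which is the smallest that 2 against 2 libraries can give. With *Eif1ax* as the parent of *Eif1ad3* the difference was 2.01.

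**Figure D2:**
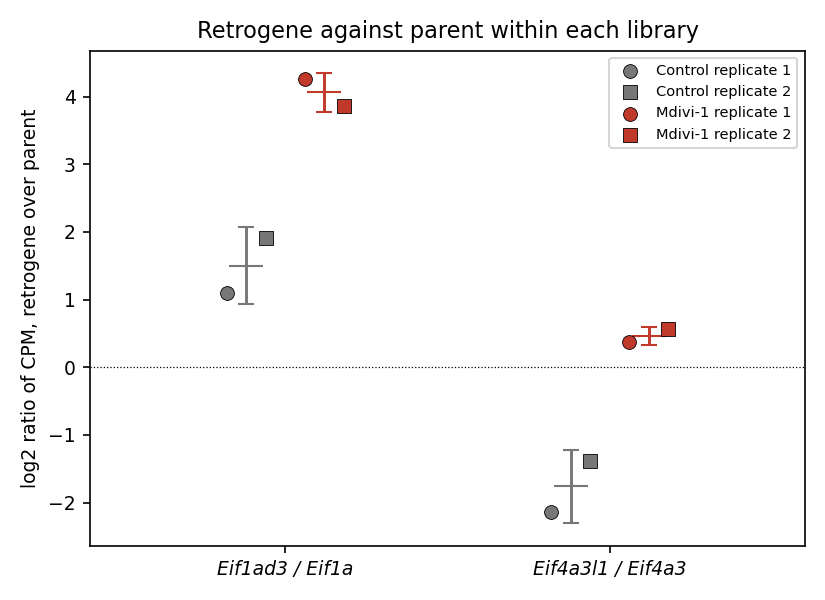
log2 ratio of CPM of each retrogene over its parent, in each library; circles are replicate 1, squares replicate 2, and horizontal ticks with bars are group means ± SD (n = 2, grey for controls and red for Mdivi-1). For both pairs the red points lie above the grey ones, by 2.56 and 2.23 between the group means, and the dotted line marks equal CPM.

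By length, *Eif4a3l1* was at 29.5 and 55.2 against 126 and 158 CPM per kb of exon, and *Eif4a3* at 96.6 and 106 against 72.1 and 79.5. Per kb the copy was therefore below its parent in both controls and above it in both treated libraries. *Eif1ad3* was at 187 and 493 against 1013 and 990.2 CPM per kb, and *Eif1a* at 36.9 and 55.7 against 22.3 and 28.8. Among the 7 genes *Eif1ad3* and *Eif1* had the highest levels per kb in every library. *Eif1*, at 263 and 467 CPM per kb in the controls, was above *Eif1ad3* in control replicate 1 only. The levels per kb of *Eif1ad3* and other copies may be too low by reads that had no single place. Of the summed counts of *Eif4a3* and *Eif4a3l1*, the copy made up 18.4% and 27.8% against 56.4% and 59.6%; the summed level was 251 and 313 CPM against 351 and 417 CPM.

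*Eif1ad3* has 5 further copies with a row in the table, all on chromosome 12 and named *Eif1ad2*, *Eif1ad4*, *Eif1ad7*, *Eif1ad8* and *Eif1ad19*, with coding sequences 97.0% to 99.1% identical to it. The log2 fold change was positive in 5 of 5, with a median of 0.92 (0.67 to 1.08), and with each of the 3 scalings tried. Over all genes it was positive in 7317 of the 14259 tested. Since the copies are nearly identical in sequence, these 5 are not separate observations. edgeR's quasi-likelihood test passed 0 of the 5 after adjustment and 1, *Eif1ad8*, at an unadjusted p under 0.05 (8.27% of all genes were higher at that p), and DESeq2 called 0. The treated libraries lay above both controls in 3 of the 5, against 26.1% of all genes.

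*Eif1ad7*, the copy nearest to *Eif1ad3*, was at 411 and 1845 CPM against 2550.3 and 2208 CPM. *Eif1ad8* was at 195 and 520 CPM against 753 and 755 CPM. *Eif1ad2* was at 55.5 and 405 CPM against 423 and 310 CPM, so that its groups overlapped. In all 6 copies control replicate 1 was the lowest of the 4 libraries, and control replicate 2 was nearer to the treated libraries. Without control replicate 1 the log2 fold change was positive in 4 of the 5 further copies and their median was 0.18, whereas without control replicate 2 the median was 2.46. The median over all genes was 0.21 without control replicate 1, slightly above that of these copies.

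Together the 6 copies summed to 1093 and 4119 CPM against 6149 and 5471 CPM. *Eif1a* and *Eif1ax* together summed to 259.7 and 455 CPM against 235 and 231 CPM. The copies made up 80.8% and 90.1% of the counts of all 8 *Eif1a*-like genes in control embryos, against 96.3% and 96.0% after treatment. *Eif1ad3* made up 30.2% and 21.2% of the counts of the 6 copies against 29.1% and 32.0%, ranges that overlap, so its share among the copies was not distinguishable between the groups. *Eif1ad2* had 88.1% of its stretches of 150 bases in other transcripts, *Eif1ad7* 40.3% and *Eif1ad4* 19.9%, while *Eif1ad8* and *Eif1ad19* had 2.96% and 1.98%. Of these last copies, little of whose sequence is shared, *Eif1ad8* had a log2 fold change of 1.08 (95% interval 0.00 to 2.15). That of *Eif1ad19* was 0.87 (95% interval -0.61 to 2.36). *Eif1ad19* was at 30.7 and 132 CPM against 197 and 99.7 CPM, so that its groups overlapped.

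**Figure D3:**
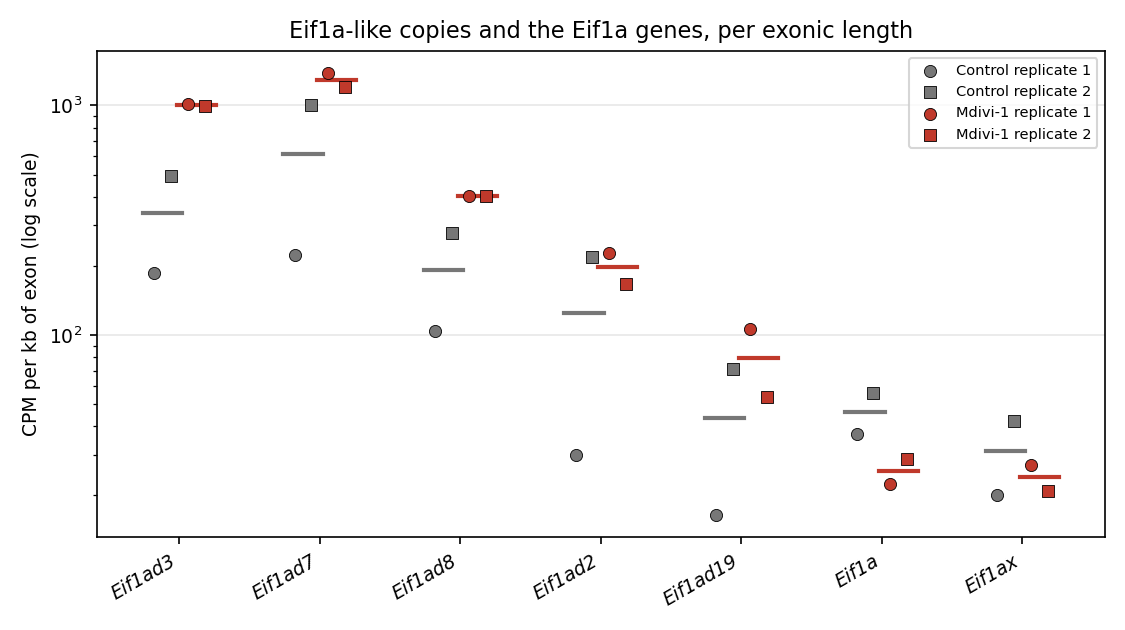
CPM per kb of exon on a log axis for Eif1ad3, 4 further Eif1a-like copies and the genes Eif1a and Eif1ax, by library; grey is control, red is Mdivi-1, circles are replicate 1, squares replicate 2 and bars are group means (n = 2). The grey circle of control replicate 1 is the lowest point of every copy, from 16.5 for Eif1ad19 to 223 for Eif1ad7; Eif1ad4, whose model holds only the coding bases, is left out.

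*Eif1ad* (ENSMUSG00000024841, chromosome 19 from 5366741 to 5371526) encodes a protein with an eIF1A-like domain. It was read at 81.4 and 136 CPM against 48.1 and 46.7 CPM. The treated libraries were nearly equal and below both controls. The log2 fold change was -1.19 (SE 0.35, 95% interval -2.00 to -0.39), with adjusted p-values of 0.1995 by edgeR's quasi-likelihood test and 0.0391 by DESeq2. Leaving out a library moved the DESeq2 adjusted p to 0.331 without control replicate 2 and to 0.420 and 0.348 without Mdivi-1 replicates 1 and 2. Its annotation shares 9.28% of its stretches with *Banf1*, and counts without strand cannot assign reads there.

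*Eif1* (ENSMUSG00000035530, chromosome 11 from 100319885 to 100322096) encodes eIF1, which guards start codon choice on the scanning ribosome. It was read at 551 and 981 CPM against 759 and 713 CPM, with the treated values between the controls. Its log2 fold change was -0.06 (95% interval -0.90 to 0.78). *Eif1b* (ENSMUSG00000006941, chromosome 9 from 120492232 to 120495330), whose protein is 92.0% identical to that of *Eif1*, was at 31.6 and 51.4 CPM against 76.1 and 32.5 CPM. The treated libraries of *Eif1b* differed by more than the group means, and its log2 fold change was 0.39 (95% interval -0.71 to 1.49). Both intervals reach to either side of 0, so a change in *Eif1* or *Eif1b* was not detectable at this spread, which does not show that there was none.

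The partners of these proteins were read from 3 lists, the 43S preinitiation complex, the exon junction complex with nonsense-mediated decay, and the cap-binding complex eIF4F with its relatives. The lists also hold *Eif1ax*, *Eif4a1* and *Eif4a2*, which are relatives of *Eif1a* and *Eif4a3* described above. Of the 51 genes 50 were tested. edgeR's quasi-likelihood test passed 0 after adjustment, and before adjustment p was under 0.05 for 2 that were higher and 12 that were lower (8.27% and 7.64% of all genes). DESeq2 called 0 higher and 5 lower (3.23% and 2.73% of all genes), but 0 of the 50 without Mdivi-1 replicate 1 and 1, *Eif4e2*, without Mdivi-1 replicate 2. Of the log2 fold changes 7 were positive and 43 negative, with a median of -0.50 against 0.03 over all genes, the reverse of the sign of *Eif1ad3* and *Eif4a3l1*. Without control replicate 1 the counts were 15 and 36, without control replicate 2 they were 12 and 39, and without Mdivi-1 replicate 2 they were 13 and 38, and the 43S list held 19 of the 43 negative values.

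The 43S list holds *Eif1ax*, itself a gene of eIF1A, beside factors that eIF1A works with. It leaves out *Eif1*, *Eif1b* and *Eif1a*, which are described above as members. Their log2 fold changes were -0.06, 0.39 and -0.86, and the groups of *Eif1* and *Eif1b* overlapped. The log2 fold change of all 19 genes of the list was below 0 (median -0.83). Both treated libraries lay below both controls in 15, against 23.9% of all genes. All 19 were negative with each of the 3 scalings, and 18 of 19 without control replicate 2. DESeq2 called 4 lower, all subunits of eIF3, the factor that gathers the 43S complex, and called none of them with either treated library left out, nor *Eif3l* with either control left out. *Eif3g* was at 139.7 and 114 CPM against 45.7 and 40.6 CPM, with a log2 fold change of -1.55 and a DESeq2 adjusted p of 0.00096. *Eif3m*, *Eif3a* and *Eif3l* followed at -1.30, -1.05 and -1.75 on the log2 scale (DESeq2 adjusted p 0.00324, 0.0111 and 0.0337).

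In the exon junction list, the partners of eIF4A3, 5 of the 18 tested genes were higher and 13 lower in the fit (median log2 fold change -0.41), and DESeq2 called 0. Without control replicate 1 the list had 9 positive and 10 negative values and a median of -0.08. edgeR gave 1 at an unadjusted p under 0.05, *Acin1*, named here after its value was seen. *Smg8*, a regulator of the decay kinase, was at 33.9 ± 2.22 CPM in controls and 18.5 ± 2.74 CPM in treated embryos (SD, n = 2 each), with an unadjusted p of 0.0521. *Casc3*, a core subunit, had 44.6 and 12.01 CPM against 12.6 and 10.3 CPM, and only control replicate 1 was high. *Smg5*, an adaptor of mRNA decay, had a log2 fold change of -0.92. *Pym1*, which removes the complex from mRNA, was at 8.87 and 2.10 CPM against 17.2 and 11.9 CPM, low levels with a wide interval (-0.38 to 3.18 on the log2 scale).

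In the cap-binding list 2 of 13 genes were higher and 11 lower in the fit (median log2 fold change -0.12). With library totals alone as the scaling 6 were positive and 7 negative. Without control replicate 1 there were also 6 and 7 (median -0.02), without Mdivi-1 replicate 2 there were 7 and 6 with a median of 0.01, without control replicate 2 the median was -0.41, and without Mdivi-1 replicate 1 it was -0.28. *Eif4e2*, a cap-binding protein linked to repression, was at 134 and 103 CPM against 33.8 and 38.2 CPM, and it was the 1 gene of this list that DESeq2 called (log2 fold change -1.72, adjusted p 0.000347), a call lost without Mdivi-1 replicate 1. *Eif4h*, a helper of the eIF4A helicases, and *Eif4e*, the main cap-binding factor, had log2 fold changes of -1.09 and -0.70. *Eif4e3* was at 39.96 and 24.5 CPM against 52.4 and 70.1 CPM, a log2 fold change of 0.93, with adjusted p-values of 0.288 by edgeR and 0.230 by DESeq2. The other higher gene, *Eif4e1b*, was at low levels, 5.87 and 2.76 CPM against 11.1 and 16.1 CPM. Its log2 fold change was 1.65, with adjusted p-values of 0.285 by edgeR and 0.222 by DESeq2, and it is named here after its value was seen.

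**Figure D4:**
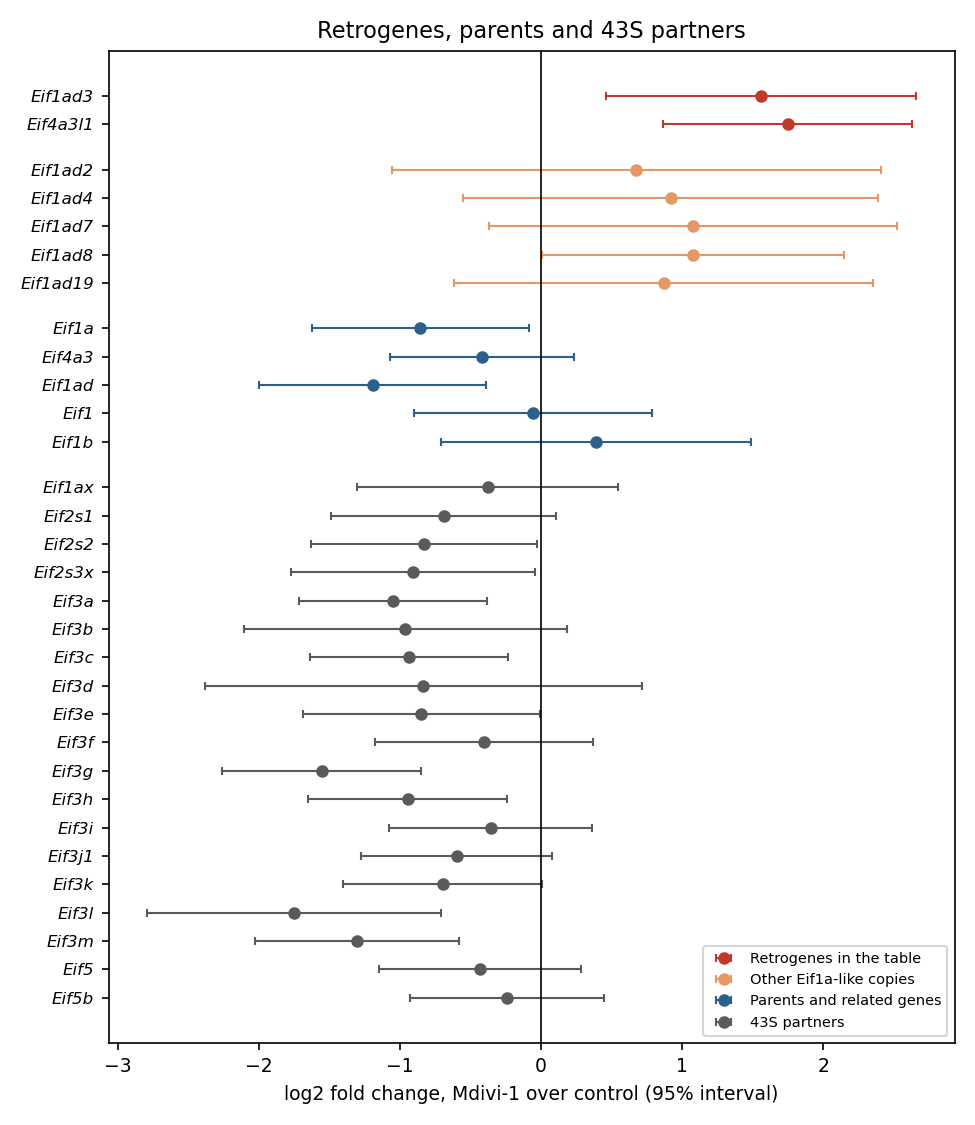
log2 fold change, Mdivi-1 over control, with its 95% interval from edgeR's quasi-likelihood fit (2 libraries a group), for the retrogenes and the further Eif1a-like copies, the parents and related genes, and the 19 genes of the 43S list. The 7 copies lie right of the zero line and the 19 list genes left of it, and the intervals of Eif1ad3 (0.46 to 2.66) and Eif4a3l1 (0.87 to 2.63) do not reach it, although no adjusted p passed the threshold.

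The windows upstream of *Eif4a3l1* and *Eif4a3* are printed because the pair encodes nearly the same protein and the windows differ in base composition. Each is the 250 bases before the RefSeq start on GRCm38.p6, at chr6:136327289-136327538 on the plus strand and chr11:119300044-119300293 on the minus strand. A window was found for 10 of the 15 genes compared here, and for neither *Eif1ad3* nor *Eif1a*. Capitals mark matches to TAATCC, the core letters bound by OTX and OBOX type homeodomains, and GGGCGG, the core of the GC box, on either strand.
Eif4a3l1: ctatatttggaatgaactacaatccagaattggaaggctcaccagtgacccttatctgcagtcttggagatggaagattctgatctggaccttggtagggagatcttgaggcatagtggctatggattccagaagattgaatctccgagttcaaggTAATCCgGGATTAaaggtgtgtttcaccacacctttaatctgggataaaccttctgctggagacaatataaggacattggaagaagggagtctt
Eif4a3: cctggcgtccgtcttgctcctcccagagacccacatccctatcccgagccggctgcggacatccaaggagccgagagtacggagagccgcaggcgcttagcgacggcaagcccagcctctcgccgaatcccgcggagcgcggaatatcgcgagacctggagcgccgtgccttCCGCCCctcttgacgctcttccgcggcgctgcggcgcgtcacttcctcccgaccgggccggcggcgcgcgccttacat

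The *Eif4a3l1* window had a GC content of 43.6% and 2 CG dinucleotides, and the *Eif4a3* window one of 70% and 36 CG dinucleotides. Over 32851 promoters of this length the medians were 52.4% and 6, and 29.0% of them had as few CG dinucleotides as *Eif4a3l1*, against 97.8% for *Eif4a3*. *Eif1ad2* and *Eif1ad19*, the *Eif1a*-like copies with a window, had 3 CG dinucleotides each, whereas *Eif1ax*, *Eif1*, *Eif1ad* and *Eif1b* had 23, 24, 28 and 42. TAATCC occurred 2 times in the *Eif4a3l1* window, 2 times in that of *Eif1ad2* and 1 time in those of *Eif1ad19* and *Eif1ad*, and in 6.25% of all promoters. GGGCGG occurred in 32.7% of promoters and 1 time in the *Eif4a3* window. TATAAA, found in 12.4% of promoters, was in none of the 10 windows. A match is a run of letters and not a bound site, and repeats were not masked in these windows.

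The genes whose profile over the 4 libraries was nearest to that of *Eif1ad3*, by the root mean square difference of log2 CPM centred on each gene's own mean, were *Chst7* (0.071), *Oog4* (0.083) and *Cfap58* (0.11), among 6797 genes with at least 10 CPM on average. Gene models named Gm or Rik and genes without a symbol were left out of this search, so nearer profiles among them would not appear. *Oog4*, a gene named for its expression in oocytes, was at 26.3 and 72.2 CPM against 155 and 163 CPM. The nearest to *Eif4a3l1* were *Isoc1* (0.025), *Zfyve21* (0.050) and *Stard3nl* (0.054). Over 4 libraries many genes can share a profile, and these distances are a description.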

How the data were processed

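RNA of late 2C mouse embryos was measured in 4 libraries. The authors trimmed reads with cutadapt 1.16, mapped them with STAR to mm10 and counted uniquely mapped reads in exons of a GENCODE annotation, and deposited raw counts per gene, which were the only values used. Their deposited table also holds a signal (the count divided by a size factor), and the log2 fold changes, Wald score and p-values of the authors' DESeq2 comparison, which were not used.

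Genes were filtered with filterByExpr (minimum count 10), scaled by TMM and tested in R 4.3.3 with edgeR 4.0.16 (quasi-likelihood, two-sided, no covariate, 14259 genes). Standard errors were worked back from that test. DESeq2 1.42.0, limma-voom (limma 3.58.1), the edgeR likelihood ratio test, other scalings and filters, the replicate number as a block and each library left out were alternatives. Ratios used a prior count of 0.5. The tests were checked on simulated data. Depth was 17712075 to 20077326 counts, and the biological coefficient of variation was 0.66. A chi-square of the counts between the 2 libraries of each group came to 102 (controls) and 47.4 (treated) per degree of freedom, far above sampling noise, so each library was kept as 1 replicate.

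The members and gene lists were chosen with earlier results of these data known. Named from each list were up to 4 genes with the smallest p and a mean of at least 10 CPM, and up to 3 genes nearest in profile to each retrogene. No protein table was used, so relatives were taken by symbol (*Eif1ad*, *Eif4a*), with *Eif1ax*. Gene models and coding identities are from GENCODE release 21 and promoters from RefSeq, both on GRCm38. Exon lengths and shared stretches are also from release 21, whereas the paper's methods name a later GENCODE release for the mapping. Levels per kb and shares of stretches may therefore differ from the models that were counted. Coding sequences were compared for 15 genes, each by its longest coding model.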

Additional observations from a re-analysis of the deposited data

How the results depend on the processing

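Over 16 alternatives the log2 fold change of *Eif1ad3* ran from 0.97 to 2.40 and that of *Eif4a3l1* from 1.32 to 2.25, and they passed the threshold of the test used in 7 and 8. *Eif1a* ran from -1.17 to -0.55, *Eif4a3* from -0.54 to -0.30 and *Eif1ad* from -1.56 to -0.81, with no change of sign. With a library left out, *Eif1* ran from -0.42 to 0.39 and *Eif1b* from -0.36 to 0.85 by edgeR, and from -0.46 to 0.39 and -0.36 to 0.86 by DESeq2. *Eif1* turned positive with library totals (0.11), limma-voom (0.0025), the replicate block (0.0010) and without control replicate 2 (0.39, and 0.39 by DESeq2), and *Eif1b* turned negative without Mdivi-1 replicate 1 (-0.36, and -0.36 by DESeq2). The cause was not tested.

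The main test called 0 genes of 14259, with 0 members and 0 pathway genes among them. Without a low-count filter it called 819 genes, 3 members and 4 pathway genes, DESeq2 called 850, 3 and 5, limma-voom 202, 2 and 2, and the likelihood ratio test 870, 3 and 5. With each library left out, the main test called 0 to 803 genes, 0 to 3 members and 0 to 6 pathway genes, the 803 being the fit that drops control replicate 1. DESeq2 with a library left out, added after seeing the data, called 1313 genes, 3 members and 12 pathway genes when control replicate 1 was dropped, and 750, 2 and 7 when control replicate 2 was. Dropping a treated library gave 89, 0 and 0 (replicate 1) or 216, 0 and 1 (replicate 2).

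Deviations of libraries with the same replicate number correlated at 0.0066 across genes, so no shared deviation by number was seen. This single correlation cannot show whether libraries of the same number share an origin. With the replicate block the log2 fold changes were 1.72 for *Eif1ad3* and 1.81 for *Eif4a3l1*, and 0 genes passed. Library totals moved the median of all genes to 0.14, against 0.03. With 2 libraries a group, the results above depended on single libraries, and the part of depth was not tested.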
